A study of Homo sapiens with 24 samples.

Results

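The 10 enzymes followed here process N-glycans in the Golgi and endoplasmic reticulum, namely MAN1A1, MAN1A2, MAN1B1, MAN1C1, MAN2A1, MAN2A2, MGAT1, MGAT2, FUT8 and FUT9. They are 10 of the 60605 genes in the count table, and all 10 passed the filter on low counts. MAN1A1 and FUT9 were chosen because they rose after treatment, so their treatment values are given as a description with no test. The other 8 were chosen by function.

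N-glycans are sugar trees added to proteins in the endoplasmic reticulum and trimmed on the way through the Golgi. Class I alpha-mannosidases remove mannose first, MGAT1 then adds an N-acetylglucosamine, the MAN2A enzymes remove more mannose, and MGAT2 opens the way to complex glycans. FUT8 adds the core fucose and FUT9 adds fucose to the outer arms, where it helps to build the Lewis x structure.

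Nascent transcription was measured by precision run-on sequencing (PRO-seq), which counts RNA being made by polymerases at work in a gene. The cells were T47D, a luminal breast cancer line, as dTAG-TRPS1 Clones 28, 35 and 39. Each is a single clone in which TRPS1, a repressive GATA-family transcription factor, carries a degron tag at its own locus, and the only TRPS1 protein made is the tagged one, the remaining copies of the gene having been knocked out. Each clone received either 0.1% DMSO or 100 nM dTAG-13, a small molecule that leads to degradation of the tagged protein, for 90 minutes. Each of the 6 groups held 4 replicates collected at different times of one day, so the 24 libraries form 12 pairs of a DMSO and a dTAG-13 library collected together. Total counts ran from 3226718 to 9575803 per library (median 5042122). The 10 luminal markers all passed the filter, with summed levels of 3872 to 6254 CPM (counts scaled to library size), while basal, stromal, immune and endothelial markers summed to at most 27.8 CPM. TRPS1 itself was read at 5183 to 9296 CPM, which cannot check the degradation because that acts on the protein.

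MAN1A1 lies at chr6:119177205-119349761 on the minus strand and FUT9 at chr6:96015974-96215612 on the plus strand (GENCODE release 44, hg38). Their promoters are shown because these were the members that rose. The sequences are RefSeq's on GRCh38.p14, 250 bases before to 50 after the start, with the first transcribed base in capitals. In the MAN1A1 promoter (chr6:119349712-119350011, minus strand) the other capital marks where ENSG00000287100, a long non-coding RNA on the opposite strand, begins, 125 bases from the MAN1A1 start. The FUT9 promoter lies at chr6:96015724-96016023 on the plus strand.
MAN1A1: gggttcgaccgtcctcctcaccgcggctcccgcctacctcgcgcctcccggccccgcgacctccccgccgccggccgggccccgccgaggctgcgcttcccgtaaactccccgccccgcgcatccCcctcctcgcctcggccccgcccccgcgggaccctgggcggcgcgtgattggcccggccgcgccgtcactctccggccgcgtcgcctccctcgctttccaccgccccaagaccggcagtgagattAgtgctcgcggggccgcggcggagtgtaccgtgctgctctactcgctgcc
FUT9: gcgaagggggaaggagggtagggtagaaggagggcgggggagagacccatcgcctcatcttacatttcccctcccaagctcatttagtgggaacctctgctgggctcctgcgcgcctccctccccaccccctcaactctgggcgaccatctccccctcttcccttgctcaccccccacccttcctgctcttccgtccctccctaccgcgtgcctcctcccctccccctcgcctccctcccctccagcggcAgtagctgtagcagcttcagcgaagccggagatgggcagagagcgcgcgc
GC content was 77.3% in the MAN1A1 promoter and 66.3% in the FUT9 promoter, against a median of 58.7% over all promoters. The GATA-family motif was searched on both strands as AGATAA, its variant ending in G (AGATAG), its variant starting with T (TGATAA) and the variant with both changes (TGATAG), and the estrogen receptor half-site as AGGTCA. Neither promoter held any of these. Of 34943 promoters of this length, 8742 held one of the GATA motifs and 4833 (13.8%) the half-site. Promoters were found for 9 of the 10 members, 20 in all, of which 2 held a GATA motif (1 each of MAN2A2 and FUT8) and 3 the half-site (1 of MAN2A1 and 2 of MGAT1). MAN1A2 had no entry.

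MAN1A1, a Golgi class I mannosidase, was higher with dTAG-13 in all 12 pairs. In Clone 28 its level was 174, 163, 151 and 161.5 CPM in DMSO and 208, 227, 226 and 214 CPM in dTAG-13, in replicates 1 to 4. In Clone 35 it was 141, 147.5, 147 and 138 CPM in DMSO and 167, 169, 179 and 176 CPM in dTAG-13. In Clone 39 it was 34.3, 38.4, 36.8 and 38.0 CPM in DMSO and 41.4, 43.8, 42.8 and 40.7 CPM in dTAG-13. The lowest dTAG-13 library lay above the highest DMSO library in each clone. The log2 fold change was 0.31 (SE 0.036) with the clones together, which placed MAN1A1 first by p-value among the genes that rose, ahead of FAM107B at 0.28 and ZNF692 at 0.39. It was 3rd with no filter on low counts, 4th with the pairs as a block, and with the block 8th without Clone 28 or without Clone 35 and 3rd without Clone 39. By clone it was 0.43 (SE 0.055) in Clone 28, 0.27 (SE 0.054) in Clone 35 and 0.19 (SE 0.066) in Clone 39. The ratio of means was 1.35, 1.20 and 1.14, and the gain in CPM was 56.2, 29.3 and 5.30. In bulk libraries a change in every cell and a change in some of the cells cannot be told apart.

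FUT9 was also higher in all 12 pairs, at a lower level. In Clone 28 it was 18.4, 13.6, 12.3 and 15.7 CPM in DMSO and 22.9, 21.9, 23.99 and 18.9 CPM in dTAG-13. In Clone 35 it was 36.7, 30.8, 25.2 and 23.4 CPM in DMSO and 42.6, 31.8, 34.3 and 29.3 CPM in dTAG-13. In Clone 39 it was 26.1, 23.2, 17.4 and 20.2 CPM in DMSO and 34.9, 27.3, 20.9 and 27.1 CPM in dTAG-13. The groups were apart in Clone 28 and overlapped in Clones 35 and 39. The log2 fold change was 0.37 (SE 0.090) with the clones together and 0.56, 0.26 and 0.34 in Clones 28, 35 and 39. By p-value FUT9 was 59th among the genes that rose, and 47th with the pairs as a block. It was 171st without Clone 28, 32nd without Clone 35 and 79th without Clone 39 (50th, 51st and 83rd with the block). The long non-coding RNA UFL1-AS1 overlaps 7.9% of FUT9 on the opposite strand and had more reads than FUT9 in all 24 libraries, with a log2 fold change of 0.11 (adjusted p = 0.827, edgeR). The strand setting of the counting is not given in the sources used here, so its part in the FUT9 counts was not tested.

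**Figure D1:**
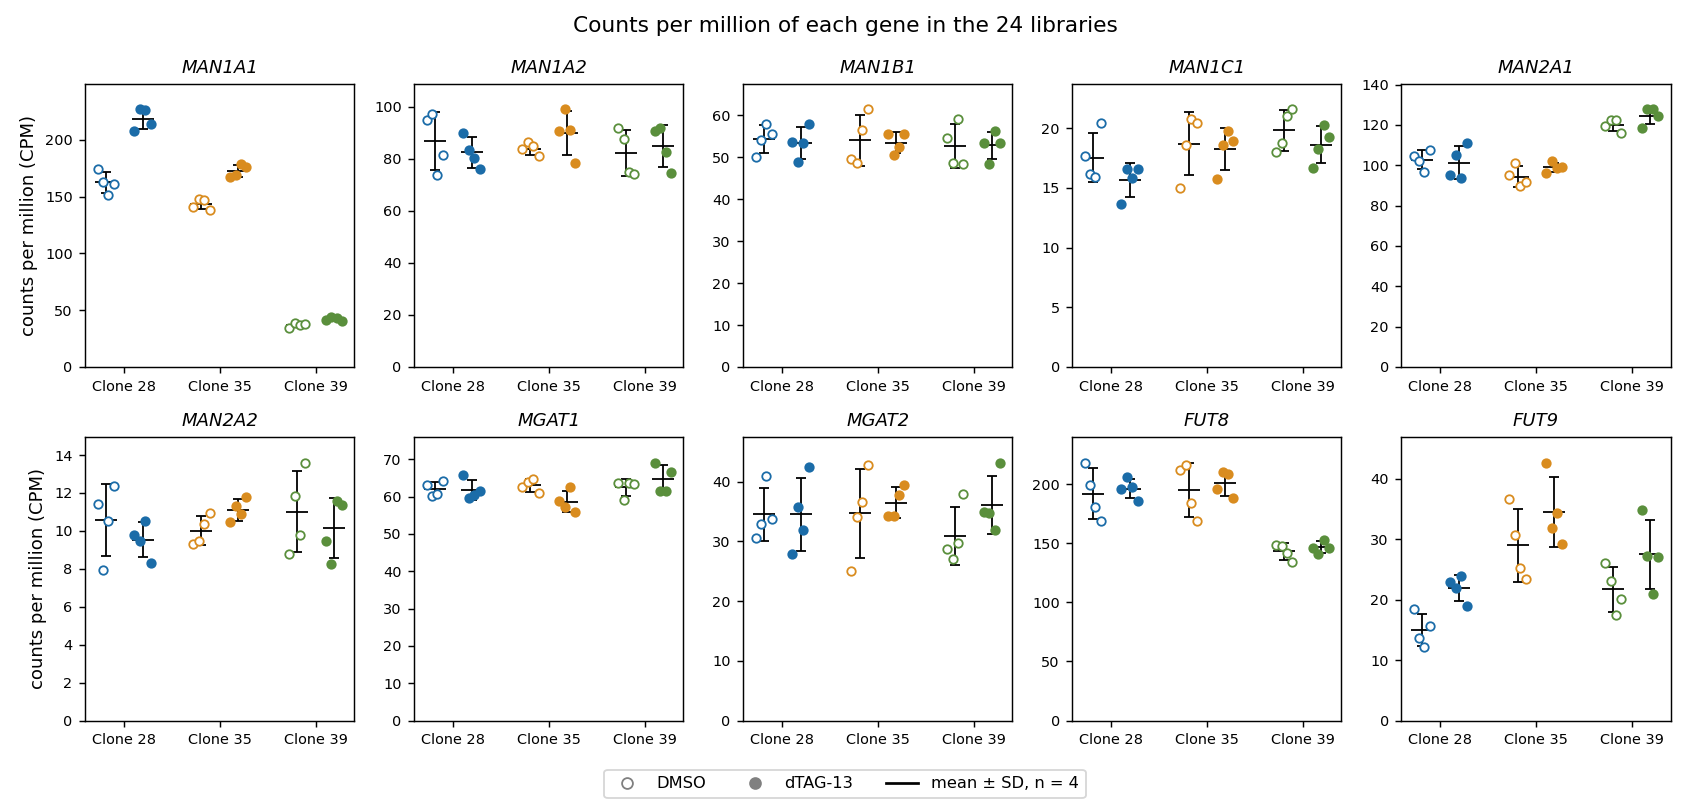
Level of each gene (CPM, axis from 0) in the 24 libraries, open points for DMSO and filled points for dTAG-13, with mean ± SD of 4 replicates. MAN1A1 separates the treatments in each clone and is near 36.9 CPM in Clone 39 in DMSO, against 162.5 CPM in Clone 28.

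None of the other 8 enzymes passed the test after treatment. With the clones together, 0.551% of the 22326 genes tested had an adjusted p under 0.1 (edgeR quasi-likelihood test, Benjamini-Hochberg over all genes), and 0 of the 8 did. The count was also 0 with DESeq2, where 0.717% of all genes passed, and with the pairs as a block, where 2.33% did. At an unadjusted p under 0.05 it was 0 of the 8, against 6.32% of all genes, and 0 of the 8 with the block, against 9.96%. At these shares few or none of any 8 genes would pass. In single clones 0 of the 8 passed, against 0.0537% of all genes in Clone 28 (0.0448% higher and 0.00896% lower), 0% in Clone 35 and 0% in Clone 39 (0.152%, 0.00448% and 0.00448% with DESeq2). With the block 0 of the 8 passed in a single clone, against 1.18%, 0.0941% and 0.0717% of all genes in Clones 28, 35 and 39. At an unadjusted p under 0.05 the count was 0 of the 8 in each clone, against 4.83%, 2.89% and 3.38% of all genes. With the block 1 of the 8 was under it, MGAT2 in Clone 39 (adjusted p = 0.795, edgeR), against 8.26%, 6.4% and 5.75% of all genes in Clones 28, 35 and 39.

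Among the class I mannosidases, MAN1A2, the closest relative of MAN1A1, had a log2 fold change of 0.02 (95% interval -0.08 to 0.13) and was higher in 7 of 12 pairs. MAN1B1, which acts in glycoprotein quality control, had -0.02 (-0.11 to 0.08), with 5 of 12 pairs higher. MAN1C1 had -0.09 (-0.24 to 0.05), with 3 of 12 pairs higher. MAN2A1 and MAN2A2, the Golgi class II mannosidases, had 0.03 (-0.04 to 0.10) and -0.03 (-0.22 to 0.16). The SD over the 12 pairs was larger for MAN2A2 than for any other of the 10, at 0.283, with pairs from -0.56 to 0.25. MAN2A2 also had the fewest reads of the 10, at 32 to 104 per library, and the part of low counts in this spread was not tested. The branching enzymes MGAT1 and MGAT2 had -0.02 (-0.10 to 0.05) and 0.09 (-0.07 to 0.26). FUT8 had 0.04 (-0.05 to 0.12). Of the 24 sets of 4 pairs (8 genes in 3 clones) 5 lay on one side of 0. In Clone 35 these were MAN2A1 and MAN2A2, higher in all 4 pairs, and MGAT1, lower in all 4, and in Clone 39 MGAT2, higher in all 4, and MAN1C1, lower in all 4. Sets of only 4 pairs can lie on one side of 0 by chance. The share over all genes was not counted, and none of these 5 passed the test in its clone.

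**Figure D2:**
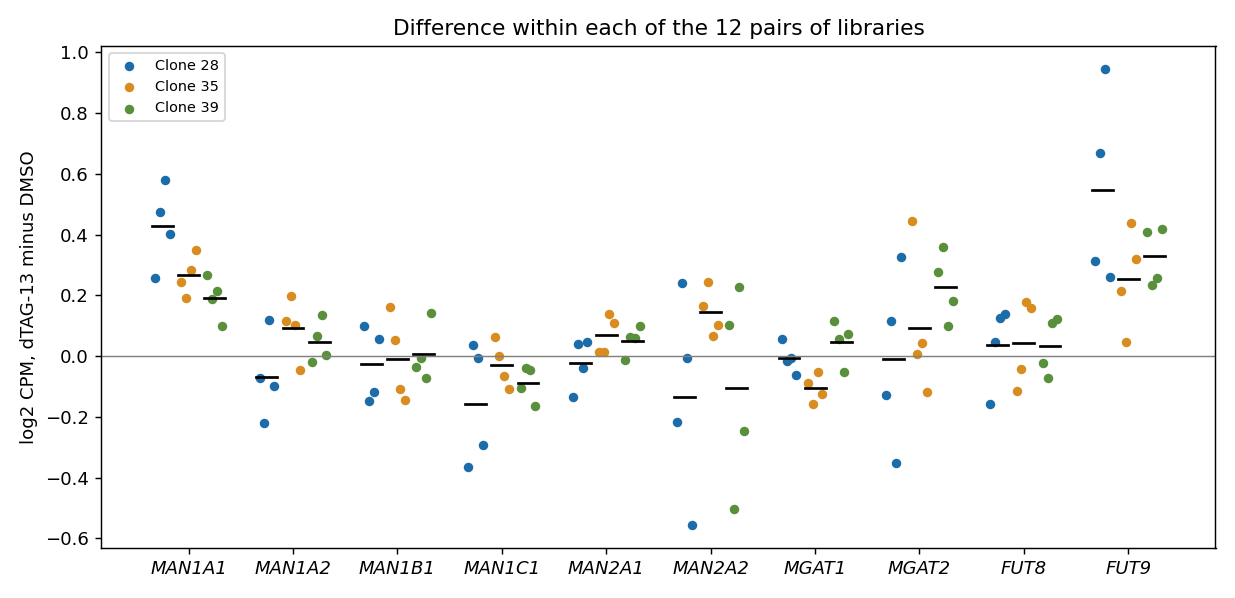
Difference in log2 CPM between the dTAG-13 and the DMSO library of each pair (points, 4 per clone) with the mean of each clone (bars). All 12 points lie above 0 for MAN1A1 and FUT9, and the other genes have points on both sides.

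The log2 fold changes of MAN1A1 and FUT9 by clone were numerically largest in Clone 28. Minus the value in Clone 28, MAN1A1 was at -0.16 in Clone 35 and -0.24 in Clone 39, and FUT9 at -0.29 and -0.21. These are differences between values that chose the members, so no test is given. For a difference between clones in the treatment effect, 0 of the 8 enzymes chosen by function and 0% of all genes passed edgeR's quasi-likelihood F-test or DESeq2, and with the block 0 of the 8 passed beside 0.00448% of all genes. At an unadjusted p under 0.05 the count was 0 of the 8, against 1.82% of all genes, and 0 of the 8 with the block, against 4.56%.

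In DMSO, before any degradation, 4 of the 10 members differed between clones, against 28.5% of all genes (edgeR quasi-likelihood F-test), or 39.7% with the replicate number as a block, where the same 4 passed. By pair of clones, 26.7% of all genes differed between Clones 39 and 28, 22.6% between Clones 39 and 35 and 5.25% between Clones 35 and 28. MAN1A1 averaged 162.5 ± 9.33 CPM in Clone 28, 143 ± 4.59 in Clone 35 and 36.9 ± 1.81 in Clone 39 (SD, n = 4 each). It was therefore 4.41-fold lower in Clone 39 than in Clone 28, a log2 difference of -2.14 (SE 0.061, adjusted p = 3.17e-23, edgeR) that ranked 2nd by p-value, although 80 genes were lower by more. Against Clone 35 the log2 difference was -1.96 (adjusted p = 4.46e-22, edgeR). Clone 35 was 0.18 below Clone 28 on the log2 scale (adjusted p = 0.0588, edgeR), a call that was lost with library totals alone, with no filter and without any one of 3 DMSO libraries, replicate 1 of Clone 28 and replicates 1 and 4 of Clone 35, where the adjusted p was 0.218, 0.106 and 0.135. The clones differ in how they were edited and in anything acquired while each was grown from 1 cell, which cannot be told apart here.

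FUT8 was lower in Clone 39 by 0.42 against Clone 28 and 0.45 against Clone 35 on the log2 scale (adjusted p = 4.08e-05 and 1.72e-05, edgeR), with 143 ± 6.84 CPM against 192 ± 21.4 and 195 ± 22.7. MAN2A1 was higher in Clone 39, by 0.22 and 0.35 (adjusted p = 0.00515 and 2.78e-05, edgeR), with 120 ± 3.11 CPM against 103 ± 4.61 and 94.4 ± 5.00. FUT9 was highest in Clone 35, at 29.0 ± 6.02 CPM against 15.0 ± 2.67 in Clone 28 and 21.7 ± 3.76 in Clone 39. The log2 difference between Clones 35 and 28 was 0.94 (adjusted p = 0.000486, edgeR). That of Clone 39 against Clone 28 was 0.55 (adjusted p = 0.0211, edgeR), and it was lost without replicate 1 of Clone 39 in DMSO (0.43, adjusted p = 0.109). That of Clone 39 against Clone 35 was -0.39 (adjusted p = 0.0857, edgeR). This call was lost with RLE size factors (adjusted p = 0.103, edgeR), with DESeq2 (adjusted p = 0.101) and without any one of 10 libraries. These were, in DMSO, replicate 4 of Clone 28, replicates 1 and 2 of Clone 35 and replicates 2, 3 and 4 of Clone 39, and in dTAG-13, replicates 1 and 2 of Clone 28, replicate 3 of Clone 35 and replicate 4 of Clone 39, with log2 differences between -0.42 and -0.27. The other 6 members differed by at most 0.18 in size between any pair of clones, none past the threshold.

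**Figure D3:**
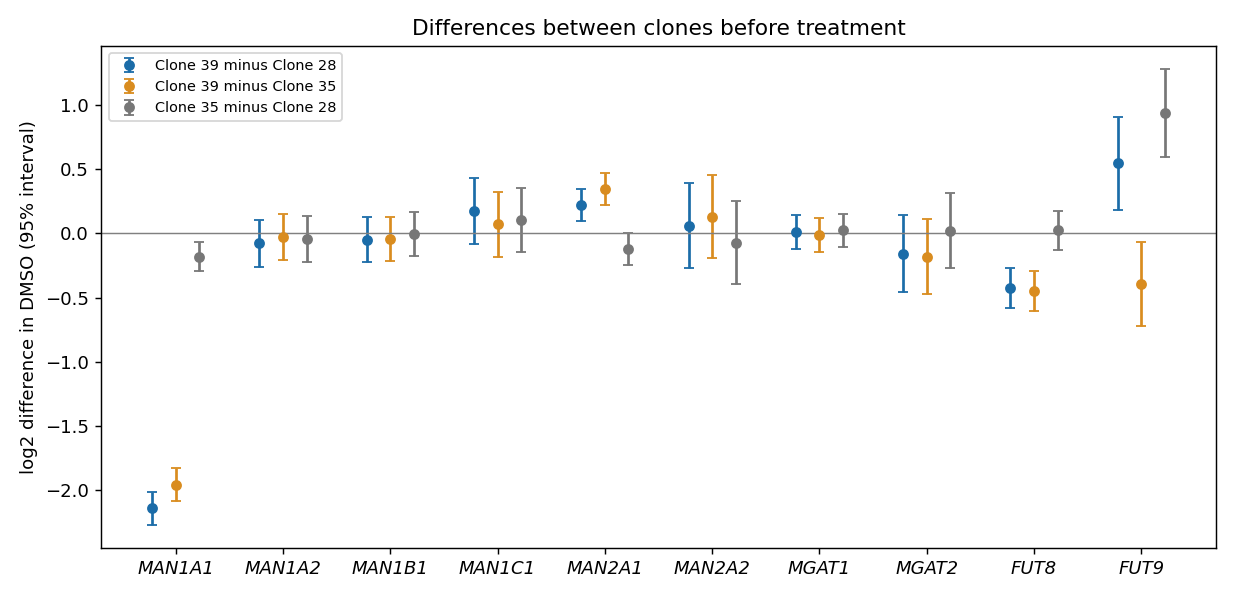
Log2 differences between clones in DMSO with 95% intervals from the edgeR fit (18 residual degrees of freedom). MAN1A1 is near -2.14 and -1.96 for Clone 39 against the other clones, while 6 of the genes have every interval across 0.

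The gene that begins beside MAN1A1 on the opposite strand, ENSG00000287100, was examined after its own clone difference had been seen. That difference is therefore given as a description with no test. Its DMSO level averaged 24.96 CPM in Clone 28, 21.1 in Clone 35 and 8.42 in Clone 39. The Clone 39 libraries did not overlap those of the other clones, and the log2 difference was -1.58 against Clone 28 and -1.33 against Clone 35. After dTAG-13 it had a log2 fold change of 0.26, with an adjusted p of 0.269 (edgeR) and of 0.0219 with the block, and was higher in 10 of 12 pairs. By clone the log2 fold change was 0.38, 0.26 and 0.036 in Clones 28, 35 and 39. In Clone 39 its mean was 8.42 CPM in DMSO and 8.33 in dTAG-13. The other 6 tested genes within 1 Mb of MAN1A1 differed between Clones 39 and 28 by -0.39 to 0.32, and the median over 1119 genes of chromosome 6 was -0.0072. Among these, ASF1A (-0.39), CEP85L (0.29) and FAM184A (0.32) had an adjusted p under 0.1 (edgeR), beside 26.7% of all genes. Between Clones 39 and 35 the log2 difference was -0.20 for ASF1A, 0.70 for CEP85L and 0.38 for FAM184A.

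**Figure D4:**
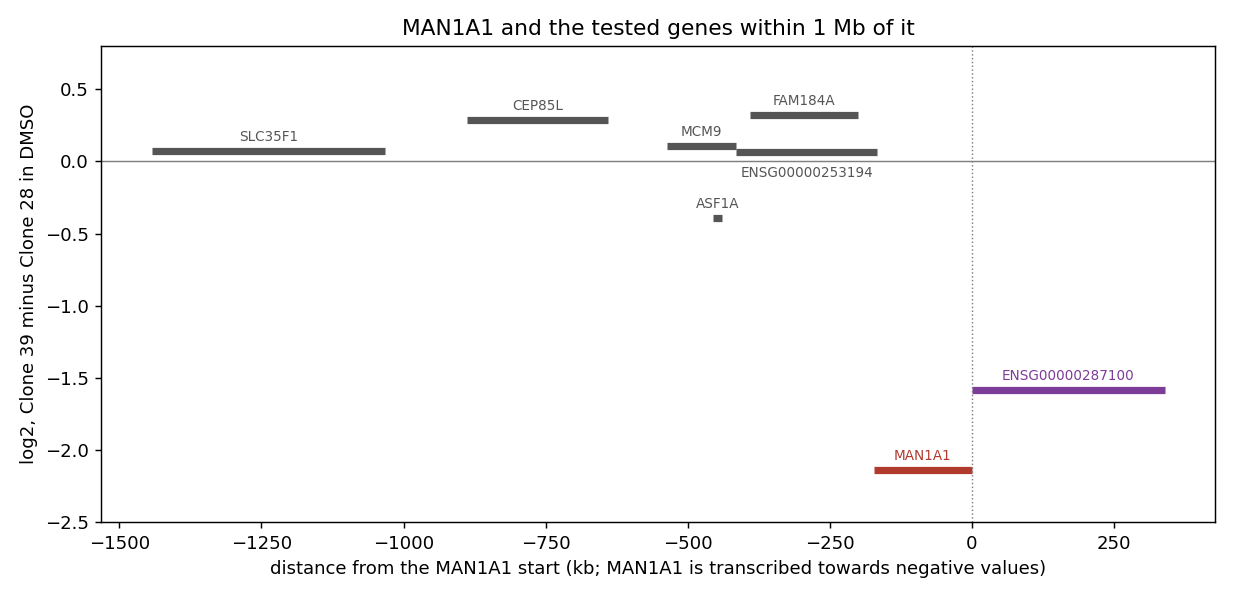
Log2 difference between Clones 39 and 28 in DMSO for MAN1A1 and its 7 tested neighbours, each drawn over its span as distance from the MAN1A1 start in kb. MAN1A1 at -2.14 and ENSG00000287100 at -1.58 stand below the others, which lie between -0.39 and 0.32.

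Levels between genes were compared per kb of gene length over the 12 DMSO libraries. How reads spread along each gene was not tested, so the order may reflect length as well as transcription. MGAT2, MAN1B1 and MGAT1 span 2.68, 22.3 and 30.9 kb. MAN2A2, at 20.4 kb, ranked lower, and the other members span at least 161 kb. Undivided, MGAT2 averaged 34.5, 34.7 and 30.85 CPM in Clones 28, 35 and 39. FUT8, the longest member, averaged 191.8, 195.2 and 143 CPM. MGAT2, a short gene, had the highest level at 12.4 ± 2.05 CPM per kb (SD, n = 12), followed by MAN1B1 at 2.404 ± 0.205 and MGAT1 at 2.02 ± 0.0592. MAN2A1, FUT8, MAN1A2 and MAN2A2 followed at 0.589, 0.530, 0.522 and 0.517 CPM per kb, and the ranges of neighbours among these 4 overlapped. The place of MAN1A1 depended on the clone. At 0.942 CPM per kb in Clone 28 and 0.830 in Clone 35 it lay above the means of these 4, and at 0.214 in Clone 39 below them. MAN1C1 and FUT9 were lowest at 0.110 CPM per kb each over the 12 libraries, but FUT9 too depended on the clone. In Clones 28, 35 and 39 FUT9 was at 0.0751, 0.145 and 0.109 CPM per kb, beside 0.1035, 0.110 and 0.117 for MAN1C1. MGAT2 is overlapped over 99.4% of its span by ENSG00000258377 on the opposite strand, which had fewer reads than MGAT2 in all 24 libraries.

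Replicates were collected at different times of one day. The labels do not state whether a replicate number means the same time in each clone, or what else went with it. The members differed in how much they followed the replicate number. In the DMSO libraries 4 of 10 members, MAN1A2, MGAT2, FUT8 and FUT9, passed the test, against 30.3% of all genes (edgeR quasi-likelihood F-test). On simulated counts this comparison made more false calls than its threshold allows. DESeq2 called fewer, 11.1% of all genes, and kept only FUT8 and FUT9 (adjusted p = 0.00272 and 0.0837), while MAN1A2 and MGAT2 were lost at 0.222 and 0.202. Without robust estimation, where 27.5% of all genes passed, MAN1A2 and MGAT2 stayed (adjusted p = 0.0375 and 0.0287, edgeR). They also passed in the dTAG-13 libraries (adjusted p = 0.00322 and 0.0215, edgeR), against 20.1% of all genes. That is the same edgeR comparison, and DESeq2 was not run on the dTAG-13 libraries. The dTAG-13 libraries were collected together with the DMSO libraries, so this is not an independent check.

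FUT8 was higher in replicates 1 and 2 than in replicates 3 and 4 in every clone in DMSO, for example at 218 and 199 against 181 and 169 CPM in Clone 28 (adjusted p = 9.28e-06, edgeR). In the dTAG-13 libraries, where 20.1% of all genes passed, FUT8 did not (adjusted p = 0.414, edgeR). FUT9 had its highest DMSO level in replicate 1 in every clone, at 18.4, 36.7 and 26.1 CPM, and passed in both treatments (adjusted p = 0.00175 and 0.0253, edgeR). MAN1A1 varied little, its replicate means lying within 0.059 of each other on the log2 scale (adjusted p = 0.861, edgeR).

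**Figure D5:**
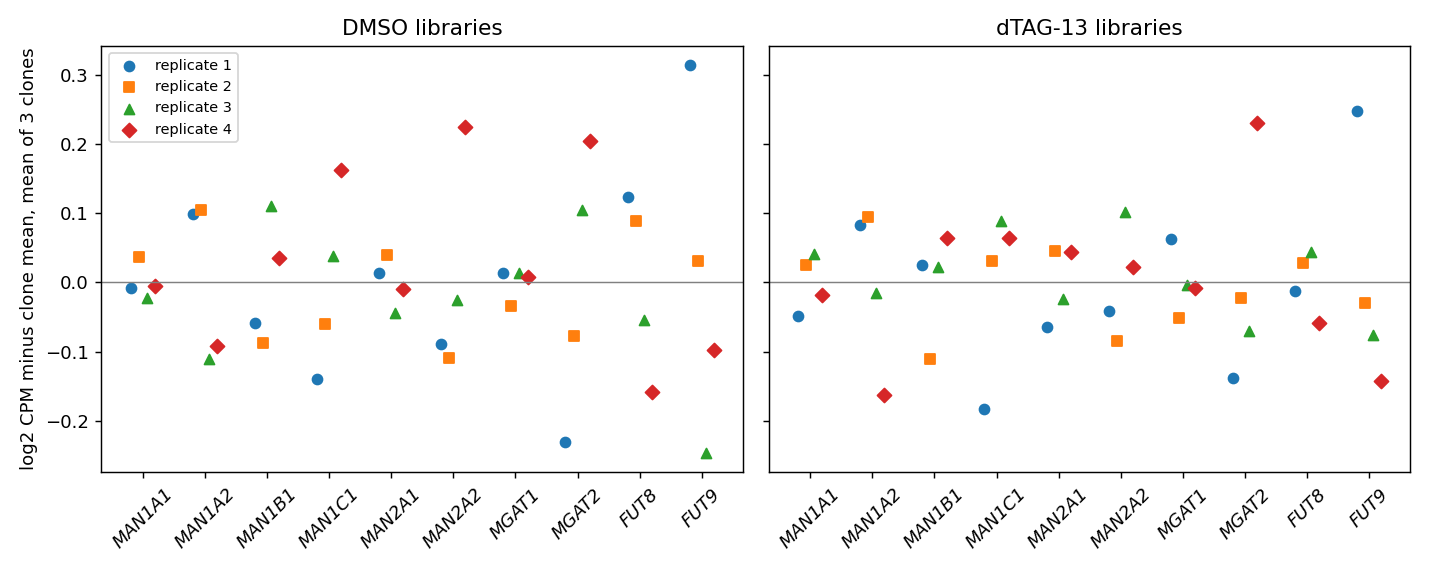
Mean over the 3 clones of log2 CPM minus the clone mean, by replicate number, in DMSO and in dTAG-13 libraries. FUT9 replicate 1 stands at 0.31 in DMSO and 0.25 in dTAG-13, and the MAN1A1 points lie within 0.059 and 0.090.

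Other genes of the N-glycan pathway, and other fucosyltransferases, not all of which act on N-glycans, did not pass the test with the clones together. Of 24 genes of precursor assembly, 12 of the oligosaccharyltransferase that attaches the glycan, 17 of quality control in the endoplasmic reticulum, 22 of later Golgi steps, 7 tested of 11 other fucosyltransferases and 12 of glycan breakdown, 0 passed in either direction, against 0.358% of all genes higher and 0.193% lower. At these shares few or none of the genes in lists of this size would pass. The medians of the log2 fold changes of the lists lay between -0.047 and 0.014, beside -0.0018 over all genes. With the block, where 1.4% of all genes rose and 0.932% fell, 2 genes of later Golgi steps fell, B4GALT1, a galactosyltransferase, by 0.14 (adjusted p = 0.00243, edgeR) and ST3GAL4, a sialyltransferase, by 0.12 (adjusted p = 0.00713, edgeR), and 0 rose. B4GALT1 was lower in 10 of 12 pairs and ST3GAL4 in 11 of 12. Without the block the adjusted p was 0.238 for B4GALT1 and 0.102 for ST3GAL4 (edgeR), the latter just above the threshold. At the shares with the block a few genes in lists of this size would pass. In the other lists the 2 genes of smallest p-value were DPM3 (-0.24) and ALG14 (-0.12) of precursor assembly, KRTCAP2 (0.09) and TUSC3 (0.23) of the oligosaccharyltransferase, EDEM1 (0.07) and MOGS (-0.11) of quality control, POFUT2 (-0.14) and FUT4 (-0.16) of the fucosyltransferases, and MANBA (0.11) and MAN2B1 (-0.14) of breakdown, as log2 fold changes with adjusted p between 0.531 and 0.998 (edgeR). FUT3, FUT5, FUT6 and FUT7 had at most 5 reads in any library and were not tested.

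The genes whose log2 CPM followed MAN1A1 most closely over the 24 libraries, after each clone's mean was subtracted, were RBM11 (Pearson r = 0.87), FAM107B (0.86), ATP7B (0.82), ZNF692 (0.82) and RNF43 (0.81). These libraries share treatment and replicate number, so the correlation is a description. FUT9 followed MAN1A1 at 0.64. The genes most like FUT9 were PIP (0.93), NEDD4L (0.90) and FSIP1 (0.89).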

How the data were processed

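PRO-seq was performed in 24 libraries, grouped by clone and treatment as the labels give them. The authors trimmed adapters with cutadapt 1.8.1, removed duplicates by molecular identifier, removed ribosomal reads, aligned to hg38 with Bowtie2 2.4.4, handled alignments with SAMtools 1.9 and used bedtools to count reads per gene. The deposited values are raw counts, and the annotation and strand setting are not given in the sources used here. Names and coordinates came from GENCODE release 44.

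Tests used edgeR 4.0.16 under R 4.3.3: filterByExpr with a minimum count of 10, TMM scaling, a robust quasi-likelihood fit, and Benjamini-Hochberg adjustment over all genes (22326, or 21254 for DMSO libraries alone) at a threshold of 0.1. The clones together were fitted with clone and treatment, and the other contrasts with the 6 groups. CPM used a prior count of 2 on the log2 scale. The methods state that each sample was plated in dishes the day before harvest, and nothing states separate passages, so p-values measure the spread between cultures of one day. Over 36 pairs of replicate libraries, chi-square divided by its degrees of freedom was 1.64 to 13.6, so replicate spread exceeded counting error. The replicate number pairs DMSO and dTAG-13 libraries because the methods state that treatments were collected simultaneously, and deviations within a pair correlated at 0.093 to 0.32. The scripts were tested on simulated data. For replicate numbers the simulations gave more false calls than the threshold allows.

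All members were described. Genes of the other glycan lists were named if past the threshold with or without the block (at most 4 in each direction). Where none passed, the 2 of smallest p-value were named. The 5 genes most like MAN1A1 and the 3 most like FUT9 were named. The members and lists were chosen with earlier results of these data known, and ENSG00000287100 and its neighbours after their values were seen. Alternatives were RLE size factors, library totals, 2 other filters, DESeq2 1.42.0, the replicate block, a threshold of 0.05, leaving out each clone or library, and, added after the simulations, a fit of replicate numbers without robust estimation.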

Additional observations from a re-analysis of the deposited data

Results flagged for a closer look

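MGAT1 in Clone 39 in DMSO had 1 library apart from the others, which lay close together: replicate 2 (230 reads) was at 59.2 CPM while the other 3 lay between 63.3 and 63.8 CPM. It was the only such group among 60 tested (10 genes in 6 groups), and chance alone gives about 1 in 20, or 3.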

How the results depend on the processing

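Of the 8 enzymes chosen by function, 0 passed after treatment under any alternative, with the clones together, in single clones or with any library left out. The count over all genes was less steady, at 123 with the clones together, 521 with the block, 197 with no filter, 64 at a threshold of 0.05, 66 to 149 without single libraries, 1 without Clone 28 and 37 without Clone 35 or without Clone 39 (177, 359 and 382 for these with the block). MAN1A1 stayed between 0.24 and 0.35 and FUT9 between 0.30 and 0.45 on the log2 scale. For differences between clones in the treatment effect 0 of these 8 passed throughout. In DMSO, clone differences gave 4 members under every alternative, 4 to 4 without single libraries. The replicate block, which groups libraries by replicate number, changed no call on the 8 enzymes after treatment and no clone difference of a member in DMSO. MAN1A1 and FUT9 carry no test after treatment. Replicate numbers gave 4 members, 4 to 5 without single libraries and 2 with DESeq2 (2365 genes against 6448). They gave 4 without robust estimation (27.5% of all genes) and 3 in the dTAG-13 libraries (20.1% of all genes). The cause was not tested.

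Signs turned only for values that passed no test. For the treatment MAN1A2 was -0.017 (-0.015 with the block) and MGAT1 0.022 (0.022) without Clone 35, and MAN2A2 was 0.025 (0.026) without Clone 28 and 0.00671 (0.013) without Clone 39. In DMSO, Clone 35 minus 28 for MAN1B1 was 0.017 with library totals and 0.000396 with no filter, and MGAT1 was -0.0015 for Clone 39 minus 28 with no filter and 0.000614 for Clone 39 minus 35 with DESeq2. Without single libraries the treatment value ran from -0.030 to 0.0070 for MAN1B1 and from -0.0615 to 0.00867 for MAN2A2, Clone 39 minus 28 from -0.067 to 0.15 for MAN2A2 and from -0.012 to 0.028 for MGAT1, Clone 39 minus 35 from -0.089 to 0.028 for MAN1A2, from -0.096 to 0.028 for MAN1B1, from -0.0085 to 0.12 for MAN1C1 and from -0.027 to 0.014 for MGAT1, and Clone 35 minus 28 from -0.12 to 0.0041 for MAN1A2, from -0.085 to 0.037 for MAN1B1, from -0.20 to 0.010 for MAN2A2, from -0.0018 to 0.032 for MGAT1, from -0.11 to 0.13 for MGAT2 and from -0.041 to 0.090 for FUT8.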
